A study of Mus musculus with 8 samples.

Results

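Polycomb group proteins keep developmental genes silent in embryonic stem cells, and the transcripts that encode 10 of them were examined here for N6-methyladenosine (m6A), a methylated base inside RNA chains. The genes were Suz12, Ezh2, Eed, Jarid2, Mtf2 and Epop, whose products belong to Polycomb repressive complex 2 (PRC2), and Cbx2, Ring1, Rnf2 and Pcgf6, whose products belong to Polycomb repressive complex 1 (PRC1). Every m6A peak whose midpoint lay between the ends of one of these genes, on the strand of the gene, was taken. This gave 23 of the 17068 peaks in the 3 lists, and 7 of the 10 genes carried at least 1 of them.

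The peaks came from RNA bound to chromatin in E14 mouse embryonic stem cells (mESCs), an established line grown in serum and LIF on gelatine. This RNA fraction is rich in transcripts that are still being made and spliced. The 8 libraries formed 4 groups of 2 replicates: RNA precipitated with an m6A antibody from Synaptic Systems (SySy), its input, RNA precipitated with an m6A antibody from Abcam, and its input. No genotype, dose or time differed between the groups. By the methods of the study, the Abcam libraries were prepared with a TruSeq kit and the SySy libraries with a NEBNext kit. Effects of antibody and library kit therefore cannot be told apart. Confidence group 1 (Cfg1, 5277 peaks) was called with both antibodies, Cfg2 (5472 peaks) with SySy while the Abcam signal lay under the threshold, and Cfg3 (6319 peaks) with Abcam alone. Cfg1 and Cfg2 together are called SySy-called peaks below.

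The peaks had been called on duplicates, and the lists hold intervals without a height. Neither the sequencing depth nor the error between replicates is therefore known, and no level of any transcript is given. A gene without a peak may carry no m6A, may carry m6A under the calling threshold, or may have too little RNA in this fraction, and these cannot be told apart. Among marker genes, 9 of 9 of embryonic stem cells carried a SySy-called peak, against 19.7% of protein-coding genes. Of those of fibroblasts, 0 of 6 carried a peak of any list, against 25.1%. For the reason just given, the absence of peaks does not show that fibroblast RNA was absent.

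PRC2 places methyl groups on lysine 27 of histone H3. Its core holds the catalytic subunit EZH2, or its relative EZH1, with EED and SUZ12. A form named PRC2.1 adds a Polycomb-like protein such as MTF2, together with EPOP or another cofactor, and PRC2.2 adds JARID2 and AEBP2. PRC1 ubiquitylates histone H2A through RING1 or RNF2. In its canonical form it carries a chromobox protein such as CBX2, which binds the mark placed by PRC2, and its variant forms are told apart by their PCGF subunit, PCGF6 being one. In mRNA, m6A is written during transcription by a complex with METTL3 as its enzyme, mostly in long exons and around stop codons. Its consensus is DRACH, which is A, G or T, then A or G, then A, then C, then A, C or T. GGACT, read from DNA, is the form most often methylated.

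The sequence at the methylation motif is shown first for the exonic SySy-called peaks, because these carry the exonic results below. Each window was read from the GRCm38.p6 assembly (mm10) on the strand of the gene, 5′ to 3′, and is 25 nt long. Capitals mark GGACT where the peak held it, otherwise GGAC followed by another base, otherwise another DRACH, taking the motif nearest to the midpoint. Distances of a motif below are those of its central A. The 5′ peak of Suz12 held no DRACH and has no window.
Suz12 exon 16, Cfg1, chr11:80031890-80031914, plus strand: agaaaattatGGACAgaaaataatt
Suz12 exon 16, Cfg1, chr11:80032203-80032227, plus strand: tgttttgaacAGACActgaagttgc
Jarid2 exon 8, Cfg1, chr13:44906350-44906374, plus strand: aaactgcccaGGACCggctggccaa
Mtf2 exon 1, Cfg2, chr5:108065870-108065894, plus strand: gggagtgcccGGACTcgcgggggag
Epop, Cfg1, chr11:97627953-97627977, minus strand: gaagatccaaGGACTggcgtccggg
Epop, Cfg1, chr11:97627834-97627858, minus strand: caaaagaaagGGACAgagggacgga
Epop, Cfg1, chr11:97627731-97627755, minus strand: tgaaggtgatTGACAgctccctggg
Cbx2 exon 5, Cfg1, chr11:119029034-119029058, plus strand: agaccagccaGGACTggaaacctac
Cbx2 exon 5, Cfg1, chr11:119029177-119029201, plus strand: tgcccgagccAGACCtgccttccag
Cbx2 exon 5, Cfg1, chr11:119029359-119029383, plus strand: ctacctgcttGGACAtagcatcctt
Pcgf6 exon 10, Cfg2, chr19:47034289-47034313, minus strand: cccagagctgGGACTctgccctcca

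A further set shows GGACT where no peak was listed. It has 1 window from each of the 4 genes without any SySy-called peak, and the window at the stop codon of Mtf2.
Ezh2 exon 10, chr6:47545733-47545757, minus strand: agagaagcagGGACTgaaactgggg
Eed exon 12, chr7:89954754-89954778, minus strand: cttcctgctcGGACTttactgcttt
Ring1 exon 3, chr17:34023308-34023332, minus strand: ggttctgctcGGACTgcatcgtcac
Rnf2 exon 8, chr1:151471123-151471147, minus strand: tttgtggaaaGGACTctgtgattca
Mtf2 exon 15, chr5:108106941-108106965, plus strand: cctgactgtaGGACTgaacgtaatg

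The number of peaks differed between the genes of one complex. SySy-called peaks lay in 6 of the 10 genes, against 19.7% of the 21951 protein-coding genes of the annotation. The 10 genes were chosen with earlier results of these data known, so the 2 shares are not an unbiased comparison. The background was 24.8% over coding genes in the range of mRNA length of the 10, and 26.3% with a longest exon over 1000 nt. Over coding genes with a peak of any list it was 78.3%. Suz12, Epop and Cbx2 had 3 SySy-called peaks each, Pcgf6 had 2, and Jarid2 and Mtf2 had 1 each. At least 3 were found in 1388 protein-coding genes, or 6.32%. Ezh2, Eed and Ring1 had no peak of any list, and Rnf2 had a Cfg3 peak only.

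Among the lists, Cfg1 gave 9 peaks in 4 genes, against 12.1% of protein-coding genes with a Cfg1 peak. Cfg2 gave 4 peaks in 3 genes, with a share of 13.7% over all protein-coding genes. Cfg3 gave 10 peaks in 4 genes, with a share of 13.3%. A peak of any list lay in 25.1% of protein-coding genes. Suz12 was the only gene of the 10 with both Cfg1 and Cfg2 peaks. Jarid2, Mtf2 and Pcgf6 carried both SySy-called and Cfg3 peaks, and the closest pair, in Mtf2, was 51 nt apart.

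**Figure D1:**
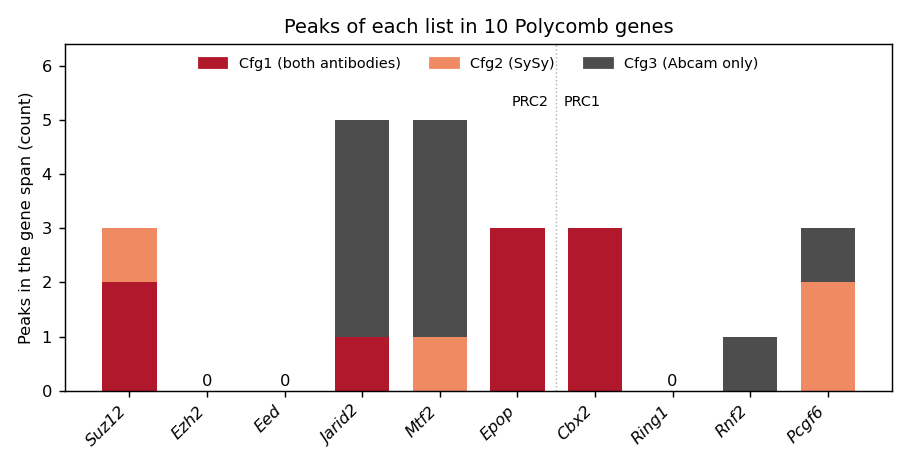
Number of peaks (vertical axis, count) in each of the 10 Polycomb genes (horizontal axis), stacked by list, with PRC2 genes to the left and PRC1 genes to the right of the dotted line. Epop and Cbx2 had Cfg1 peaks only, Jarid2 and Mtf2 had 4 Cfg3 peaks each, and Ezh2, Eed and Ring1 had 0.

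These counts rest on fewer independent calls than peaks. The authors split a broad MACS2 call at its summits, and the 23 peaks came from 14 calls, with 8 calls behind the 13 SySy-called peaks and 6 behind the 10 Cfg3 peaks. The 3 peaks of Epop were 1 call, as were the 3 of Cbx2. Of the 23 peaks, 60.9% shared a call with another peak (95% Wilson interval, 40.8% to 77.8%), against 43.1% of all 15730 peaks that lay in a gene. Intervals of this kind cover counting error alone, and peaks of 1 call are not independent.

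Of the PRC2 core genes Suz12, Ezh2 and Eed, only Suz12 carried peaks. Suz12 (chr11:79993106-80034123, plus strand, 16 exons) encodes the subunit that holds the core together. Its Cfg1 peaks lay side by side in the last exon, which is 2279 nt long and contains the stop codon. The first (chr11:80031846-80032063, 218 nt wide) was centred on codon 664 of 741, 236 nt before the end of the stop codon. Its midpoint was 109 nt from the splice junction that opens this exon. The second (chr11:80032110-80032342, 233 nt wide) was centred 36 nt past the stop codon, in the 3′ UTR, and a gap of 46 nt parted them.

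GGACT does not occur in the 4373 nt of the Suz12 mRNA. The first Cfg1 peak held 5 DRACH with 1 GGAC among them, and the second held 10 DRACH with no GGAC. The Cfg2 peak (chr11:79993165-79993280, 116 nt wide) lay in the 5′ UTR, 116 nt from the first base of the transcript, with a GC content of 71.6% and 0 DRACH.

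Ezh2 (chr6:47530139-47595341, minus strand, 20 exons), the catalytic subunit, had no peak, and its 2787-nt mRNA held 2 GGACT and 71 DRACH. Both GGACT lay in internal exons, of 129 nt and 241 nt, and its longest exon was the last, at 463 nt. Eed (chr7:89954654-89980983, minus strand, 12 exons), whose product binds the methylated histone, held 1 GGACT in its 410-nt last exon, 171 nt past the stop codon, and 42 DRACH. DRACH density over the whole mRNA was 25.5 per kb in Ezh2 and 20.3 per kb in Eed, both above the 18.8 per kb of Suz12.

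Epop and Mtf2, both of PRC2.1, carried their SySy-called peaks at opposite ends of the transcript. Epop (chr11:97627389-97629702, minus strand) is a gene of 1 exon of 2314 nt, and its product links PRC2 to elongin B and C. Its 3 Cfg1 peaks ran without a break other than 1 nt from chr11:97627668 to 97628160. They were centred 113, 291 and 436 nt past the stop codon, all in the 783-nt 3′ UTR. The peak nearest to the stop codon was 202 nt wide and held the only GGACT of the 3, while the middle peak held 4 GGAC, none of them GGACT. A second GGACT of the mRNA, 667 nt before the end of the stop codon, lay in no peak.

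Mtf2 (chr5:108065674-108109004, plus strand, 15 exons) encodes a Polycomb-like protein that helps to bring PRC2 to CpG islands. Its Cfg2 peak (chr5:108065798-108065897, 100 nt wide) lay in the 5′ UTR, 105 nt from the start of the representative transcript, with a GC content of 73.0%. That peak held 1 GGACT. The other GGACT of the mRNA lay 8 nt past the stop codon in a last exon of 2417 nt, and no peak of any list lay in that exon.

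In the first intron of Mtf2, 4 Cfg3 peaks were listed. The intron is 14859 nt long. Of these peaks, 3 were parts of 1 call and had midpoints 31, 144 and 253 nt into the intron. The first of these began in exon 1, a gap of 51 nt after the Cfg2 peak. The other (chr5:108077833-108077989) was centred 11946 nt from the 5′ splice site and held 2 GGACT, and its midpoint was 254 nt from the start of another annotated transcript of Mtf2. At least 4 Cfg3 peaks were found in 337 protein-coding genes, or 1.54%.

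Jarid2 (chr13:44729474-44921643, plus strand, 18 exons), the defining subunit of PRC2.2, was the gene whose exonic peaks lay away from both ends of the coding sequence. A Cfg1 peak (chr13:44906274-44906427, 154 nt wide) lay in exon 8, an internal exon of 503 nt, centred on codon 686 of 1234. It was 1648 nt before the end of the stop codon and held 8 DRACH. A Cfg3 peak (chr13:44902623-44902799, 177 nt wide) lay in the exon before it, exon 7 of 1033 nt, centred on codon 464. Exons 7 and 8 are the longest internal exons among the 10 mRNAs. The mRNA held 7 GGACT, more than any other of the 10, and none lay in a peak.

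The other 3 Cfg3 peaks of Jarid2 were parts of 1 call in intron 1, which is 91463 nt long. They were 86, 18 and 94 nt wide and lay 36753 to 36863 nt into it, or 40.2% to 40.3% of the way along the intron. No annotated exon of Jarid2 lay there in any of its 16 transcripts. The peak of 18 nt was as narrow as the narrowest peak of the 15730 in genes.

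**Figure D2:**
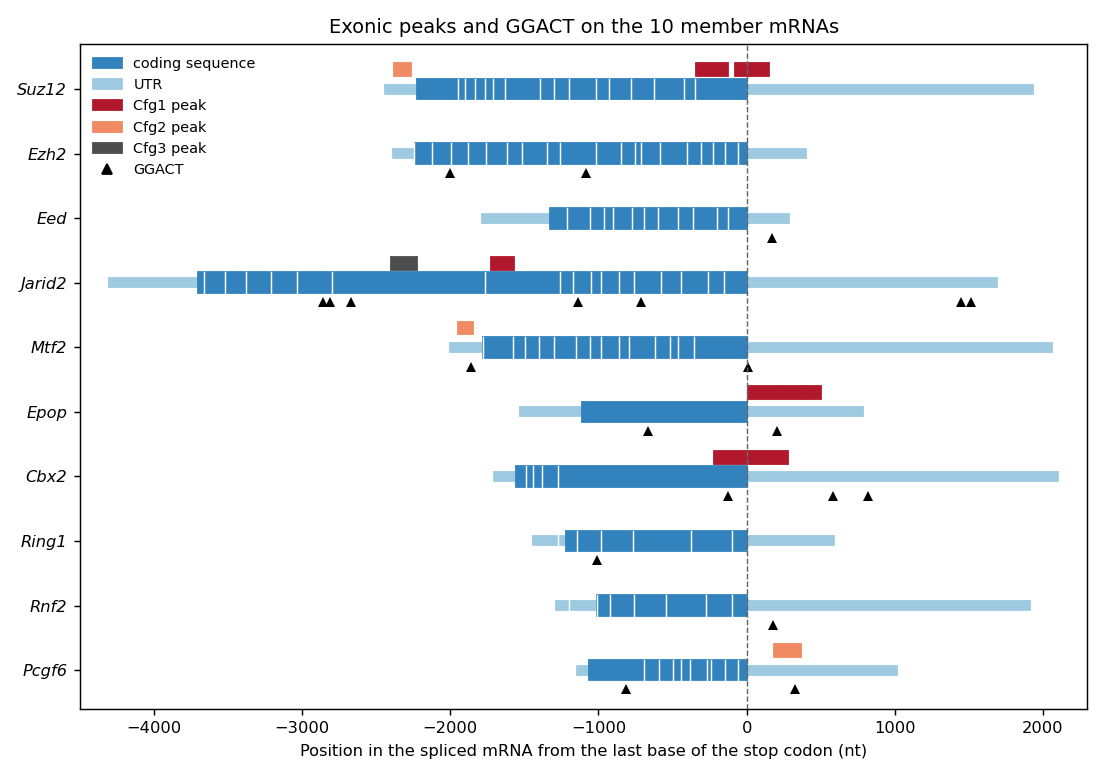
Spliced mRNAs of the 10 genes, aligned at the stop codon (horizontal axis, distance in nt from its last base), with coding sequence (dark blue), UTRs (light blue), splice junctions (white lines), exonic peaks coloured by list above each mRNA and GGACT below it. The Cfg1 peaks of Suz12, Epop and Cbx2 lie from 236 nt before to 436 nt past the end of the stop codon, in exons of 2279, 2314 and 3372 nt, whereas the Cfg1 peak of Jarid2 lies 1648 nt before it and the Cfg2 peak of Mtf2 in the 5′ UTR.

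For PRC1, Cbx2 (chr11:119022962-119031270, plus strand, 5 exons) carried 3 Cfg1 peaks on both sides of its stop codon. All were in exon 5, the last, which is 3372 nt long. The first (chr11:119028948-119029113, 166 nt wide) was centred on codon 474 of 519, 140 nt before the end of the stop codon, and held the GGACT shown above. The second (chr11:119029115-119029261) was centred 18 nt past the stop codon and the third (chr11:119029263-119029447) 185 nt past it. The mRNA held 2 more GGACT, 585 and 822 nt past the stop codon in the same exon, and neither lay in a peak. Cbx2 was the only one of the 10 with all of its peaks within 200 nt of the stop codon.

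The ubiquitin ligase genes Ring1 and Rnf2 had no SySy-called peak. Ring1 (chr17:34020792-34024680, minus strand, 7 exons) had its 1 GGACT in an internal exon of 161 nt, and its longest exon was 692 nt. Rnf2 (chr1:151458004-151500955, minus strand, 8 exons) had a last exon of 2013 nt with a GGACT 181 nt past the stop codon and 76 DRACH in its mRNA, and no peak lay in that exon. The Cfg3 peak of Rnf2 (chr1:151496855-151496954, 100 nt wide) lay in intron 1, 3815 nt from the 5′ splice site. The same bases are the exon of Gm36527, an annotated gene to be experimentally checked, of 1 exon on that strand, so the peak could not be given to Rnf2 alone.

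Pcgf6 (chr19:47033617-47050906, minus strand, 10 exons), which defines a variant PRC1, carried peaks at both ends. A Cfg2 peak (chr19:47034261-47034446, 186 nt wide) was centred 276 nt past the stop codon in the last exon of 1069 nt and held 1 GGACT. A second Cfg2 peak (chr19:47050320-47050455, 136 nt wide) was centred in intron 1, 64 nt from the 5′ splice site, began inside exon 1 and had a GC content of 70.6%. It was the only SySy-called peak of the 10 genes with its midpoint in an intron. A Cfg3 peak (chr19:47049332-47049517) lay farther along the same intron, 335 nt from the 3′ splice site, in sequence that is the first exon of 1 of the 4 annotated transcripts, whose start was 63 nt from the midpoint.

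The location of the peaks differed between the lists. Of the 13 SySy-called peaks, 12 were exonic, or 92.3% (66.7% to 98.6%), close to the 88.2% of all SySy-called peaks in genes. Of the 10 Cfg3 peaks, 9 were intronic, or 90.0% (59.6% to 98.2%), where the share over all Cfg3 peaks in genes was 55.3%. In the shares over all genes, a peak that lay in several genes was placed where it was exonic. By that rule the Cfg3 peak of Rnf2, in the exon of Gm36527, would be exonic, whereas it is counted here as intronic. The 9 intronic Cfg3 peaks came from 5 calls in Jarid2, Mtf2, Rnf2 and Pcgf6, and all lay in the first intron. The share of first introns among all intronic Cfg3 peaks was not counted, so this cannot be read as particular to these genes. With each call counted once, 5 of 6 Cfg3 calls were intronic, or 83.3% (43.6% to 97.0%), an interval that holds the 55.7% of all Cfg3 calls in genes. Over the 3 lists together, 56.5% of the peaks (36.8% to 74.4%) were exonic and 43.5% (25.6% to 63.2%) intronic, against 71.5% and 25.2% of all peaks in genes. By call, 6 of 14 were intronic, or 42.9% (21.4% to 67.4%), an interval that holds the 28.6% of all calls in genes.

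Within mRNAs, 9 of 13 exonic peaks were in the last exon, or 69.2% (42.4% to 87.3%). This compares with 56.6% of all exonic peaks of coding genes, a share inside that interval. With each call counted once it was 4 of 8, or 50.0% (21.5% to 78.5%), against 55.5%. Epop has 1 exon only, so its 3 peaks could not fall elsewhere. Internal exons over 400 nt held 2 of 13, or 15.4% (4.33% to 42.2%), against 30.2%, again inside the interval. Both were peaks of Jarid2, 1 of them a Cfg3 peak. Among SySy-called peaks alone the share was 8.33% (1.49% to 35.4%) against 28.9%, also inside the interval. With a limit of 800 nt it was 7.69% against 20.5% over the 3 lists, and 0 of 12 against 19.4% among SySy-called peaks. With each call counted once and the limit of 400 nt, it was 2 of 8 calls, or 25.0% (7.15% to 59.1%), against 29.3%. Within 200 nt of the stop codon were 5 of 13, or 38.5% (17.7% to 64.5%), against 22.2%, a share inside the interval. The share depended on the window, at 15.4% against 11.6% within 100 nt and 61.5% against 35.9% within 400 nt. Taking Cfg1 alone, 5 of 9 peaks, or 55.6% (26.7% to 81.1%), lay within 200 nt, against 24.5% of all exonic Cfg1 peaks. The 5 peaks came from 3 calls, 1 each in Cbx2, Suz12 and Epop. Counted by call, 3 of 8 exonic calls, or 37.5% (13.7% to 69.4%), lay within 200 nt, against 26.5%.

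A second group of peaks lay at the 5′ ends. The midpoint was within 500 nt of an annotated transcript start for 7 of 23 peaks, or 30.4% (15.6% to 50.9%), against 13.7% of all peaks in genes. This distance was chosen after the positions were seen. Among SySy-called peaks it held for 2 of 13, or 15.4% (4.33% to 42.2%), against 15.0%, and among Cfg3 peaks for 5 of 10, or 50.0% (23.7% to 76.3%), against 11.4%. By call it held for 3 of 6 Cfg3 calls, or 50.0% (18.8% to 81.2%), against 11.4% of all Cfg3 calls in genes. Over the 3 lists it held for 5 of 14 calls, or 35.7% (16.3% to 61.2%), against 14.1%. The 7 peaks comprised the 5′ Cfg2 peaks of Suz12 and Mtf2, 4 Cfg3 peaks of Mtf2 and the Cfg3 peak of Pcgf6. None of the 9 Cfg1 peaks was among them. The Cfg2 peak of Pcgf6 in intron 1 fell just outside the limit, at 503 nt from the nearest start. The last of the Mtf2 peaks and the Cfg3 peak of Pcgf6 were near the start of a transcript other than the representative one. These starts, and the introns in which peaks were placed, are those of GENCODE vM21, and the later release used in the study was not used here. m6A antibodies also bind a methylated adenosine next to the cap, which is a different mark, and these intervals do not separate the 2 marks at a transcript start.

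**Figure D3:**
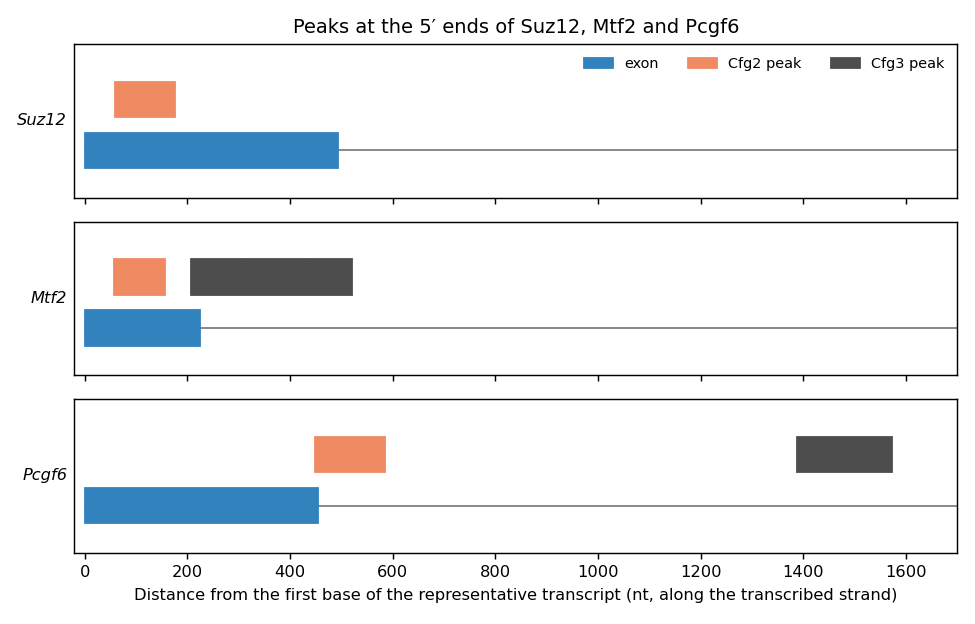
Peaks near the 5′ ends of Suz12, Mtf2 and Pcgf6 (horizontal axis, distance in nt from the first base of the representative transcript), with exon 1 in blue, Cfg2 peaks in orange and Cfg3 peaks in grey. The Cfg2 peaks of Suz12 and Mtf2 sit inside exon 1, that of Pcgf6 crosses its 5′ splice site, and the 3 adjoining Cfg3 peaks of Mtf2 begin in exon 1 and run into intron 1.

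The motif content of the peaks was then compared with that of all peaks in genes. GGACT, searched on the strand of the peak, was found in 6 of 23 peaks, or 26.1% (12.5% to 46.5%), against 28.6%. The 6 were 1 peak each of Mtf2 (Cfg2), Epop, Cbx2 and Pcgf6 (Cfg2), and 2 Cfg3 peaks of Mtf2. In Cfg1 it was found in 2 of 9, or 22.2% (6.32% to 54.7%), against 37.9%. The median width of these peaks and of all peaks in genes was 166 and 198 nt in Cfg1, 126 and 159 nt in Cfg2, and 98.0 and 135 nt in Cfg3. In windows of a fixed 251 nt around the midpoint, GGACT was found in 47.8% (29.2% to 67.0%) against 36.8%. The lists differed in this share, which was 60.0% (31.3% to 83.2%) against 26.7% in Cfg3, 33.3% (12.1% to 64.6%) against 43.6% in Cfg1, and 38.5% (17.7% to 64.5%) against 42.3% over SySy-called peaks. Windows of adjoining peaks overlap, so 1 motif can count more than once. On the opposite strand of the peaks the share was 4.35% (0.772% to 21.0%) against 12.0%. DRACH was found in 21 of 23 peaks, or 91.3% (73.2% to 97.6%), against 96.2%.

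Viewed from the mRNAs, most GGACT lay outside the peaks. The 10 mRNAs held 21 GGACT, of which 4 lay in a SySy-called peak and 17 in no peak. Of these 17, 7 were in exons of up to 400 nt and 10 in longer exons. In the 6 genes with an exonic SySy-called peak, 25.0% of the 16 GGACT were inside such a peak, against 18.8% of 20056 in the 3915 coding genes with one.

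DRACH was denser inside the exonic SySy-called peaks than in the rest of the mRNA in all 6 of these genes, as it was in 77.4% of those 3915 genes. The pairs of densities, inside and outside, were 26.5 and 17.6 per kb in Suz12, 28.5 and 12.6 per kb in Epop, and 32.1 and 16.9 per kb in Cbx2. They were 51.9 and 16.6 per kb in Jarid2, 30.0 and 22.0 per kb in Mtf2, and 32.3 and 20.8 per kb in Pcgf6. The high value of Jarid2 rested on 8 motifs in 154 nt. The 4 genes without a SySy-called peak had 20.3 to 25.5 per kb over the whole mRNA.

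The genes with and without SySy-called peaks also differed in the length of their exons. The longest exon was over 1000 nt in 7 of the 10 genes, and 6 of these had a SySy-called peak, the exception being Rnf2. It was shorter in Ezh2, Eed and Ring1, and 0 of these 3 had one. Over all protein-coding genes, 26.3% of the 12484 with a longest exon over 1000 nt had a SySy-called peak (25.6% to 27.1%), against 10.8% of the other 9467 (10.2% to 11.5%). This split was chosen after the peaks of the 10 genes were seen. The share rose over 5 classes of longest exon, from 6.07% up to 500 nt to 33.1% over 4000 nt.

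**Figure D4:**
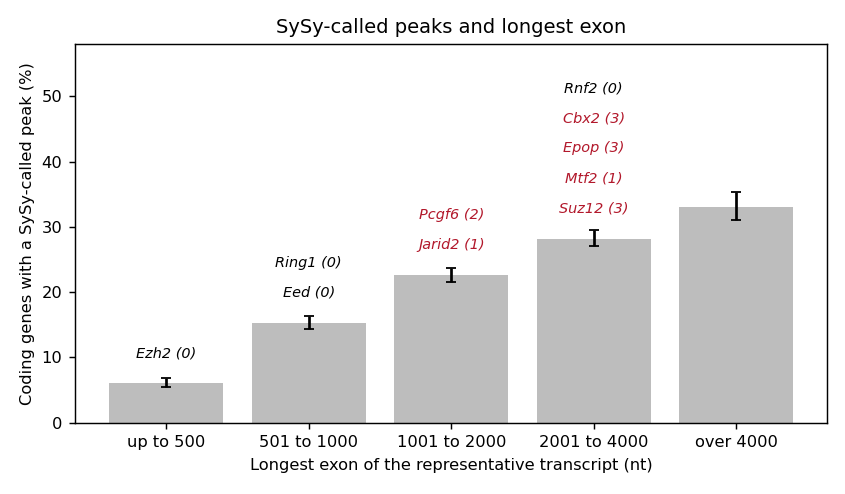
Share of protein-coding genes with a SySy-called peak (vertical axis, percent) by the longest exon of the representative transcript (horizontal axis, nt), with 95% Wilson intervals, and the 10 Polycomb genes written above their class with the number of SySy-called peaks in parentheses (red, at least 1). The share rises from 6.07% to 33.1%, and the 3 genes in the lowest 2 classes had 0 SySy-called peaks.

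Other genes of the Polycomb system were examined in the same way, from a list of 52 that contains the 10 and adds 42. Of these 42, 20 (47.6%) had a SySy-called peak, against 19.7% of all protein-coding genes and 6 of the 10. This list, too, was chosen with earlier results of these data known. Together the 42 held 115 peaks. Their 70 SySy-called peaks were exonic in 80.0%, against 88.2% of all SySy-called peaks in genes. Of their 45 Cfg3 peaks 25 were intronic, where the share over all Cfg3 peaks in genes was 55.3%. For the 34 of the 42 genes with a longest exon over 1000 nt the share with a SySy-called peak was 50.0%, against 26.3% of all such coding genes. For the other 8 it was 37.5%, against 10.8%.

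By role, 2 of the 6 PRC2 core genes had a SySy-called peak. Besides Suz12 this was Ezh1, with a Cfg2 peak in an exon, and Rbbp4 and Rbbp7, which encode histone-binding subunits, had none. The PRC2.1 genes Phf1 and Phf19, relatives of Mtf2, had no peak of any list, whereas Lcorl had 7 SySy-called peaks, of which 3 were exonic. The PRC2.2 gene Aebp2 had 1 Cfg2 peak beside the single Cfg1 peak of Jarid2. In the removal of H2A ubiquitin, the work of the PR-DUB complex, the cofactor genes Asxl1 and Asxl2 had 11 and 9 SySy-called peaks while Bap1, its enzyme, had none.

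Among the relatives of Cbx2, some genes with a long last exon had no peak. Cbx6 and Cbx8 had no peak of any list, with last exons of 5083 and 3215 nt and 8 and 6 GGACT in their mRNAs. Cbx7 had 4 SySy-called peaks, of which 2 were exonic, and none lay within 200 nt of its stop codon. The other genes without any peak were Phc2, Scmh1, Scml2, Pcgf1, Pcgf3, Yaf2, Bcor, Fbrs, E2f6, Asxl3 and Mbd6. The other genes with 3 or more SySy-called peaks were Mga with 10, Auts2 and Fbrsl1 with 4 each, and Bcorl1 and Foxk2 with 3 each. Exonic were 1 of the 4 in Auts2, 2 of the 4 in Fbrsl1 and all of those in Mga, Bcorl1 and Foxk2. Mga and E2f6 encode partners of PCGF6, and no peak was listed in E2f6.

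**Figure D5:**
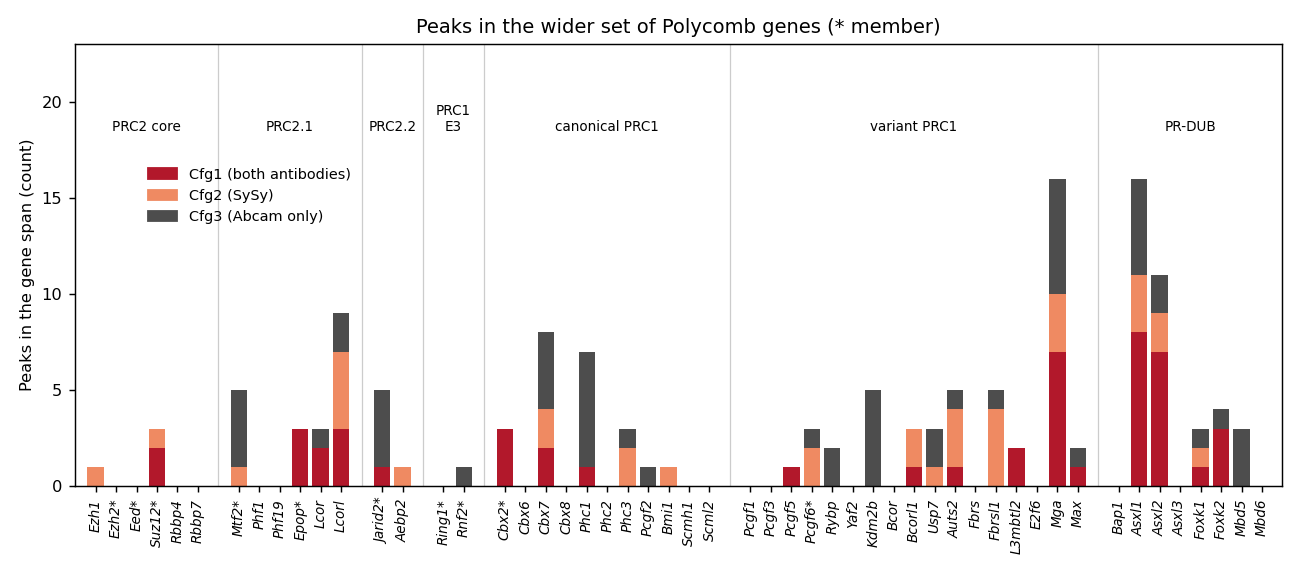
Number of peaks (vertical axis, count) in 52 genes of the Polycomb system (horizontal axis), stacked by list and grouped by complex, with the 10 genes described above marked by an asterisk. Mga and Asxl1 had 16 peaks each, and Cbx6 and Cbx8, near Cbx2, had 0.

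Around the 10 genes, peaks on the opposite strand were found in Jarid2 alone. A Cfg1 peak (chr13:44869860-44869982) and a Cfg2 peak (chr13:44869592-44869701) lay on the minus strand inside Jarid2, 138650 and 138375 nt from the first base of the representative transcript. No gene lay there on that strand among those kept from the annotation, which were without pseudogenes and small structured RNAs. Neither peak held a GGACT and each held 3 DRACH. In front of Mtf2, a Cfg3 peak on the same strand (chr5:108064221-108064400) ended outside the gene, with its midpoint 1364 nt before the annotated start.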

How the data were processed

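The files give each peak as an interval with its strand and name. Their score column, a deposited value, was 0 in all 17068 entries, so no peak height entered. According to the methods and the labels, the authors used MACS2 2.1.1 on duplicate precipitates and inputs, separately per antibody, then split and trimmed calls around summits and chose the strand with more enrichment. HOMER appears in the submitters' processing notes.

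Peaks were placed by midpoint on GRCm38.p6 (mm10) with GENCODE release vM21, which precedes the study's. The representative transcript was that with the longest coding sequence. Transcripts of the 10 genes, spliced from the assembly, equalled the GENCODE sequences in 10 of 10. In 1 Cfg2 entry a stray character beside the strand was ignored. Of 55450 annotated genes, 35325 were kept, without pseudogenes and small structured RNAs. Genes and peaks are not replicates, so counts and shares are given without tests, with 95% Wilson intervals. The genes, the wider list and the naming rule (the 10 genes, and from the wider list those with 3 or more SySy-called peaks or with no peak) were chosen with earlier results of these data known. Ezh1 and Aebp2, outside that rule, were named after their values were seen. From the wider list, 1 gene is not reported here and is in none of its counts. Counting was tested on simulated data. Alternatives covered placement, strand, transcript, windows, motif and background. Python 3.11.15, numpy 2.4.6, scipy 1.17.1 and matplotlib 3.10.9 were used.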

Additional observations from a re-analysis of the deposited data

How the results depend on the processing

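Of the alternatives, 54 values stayed near the main one (a count within 1.5 times, a share inside its 95% interval) and 16 moved. Since those intervals are wide, 4 of the 54 differed by over 1.5 times: the share in long internal exons was 8.33% with SySy-called peaks only, 7.69% over 800 nt and 25.0% with each MACS2 call counted once, an alternative chosen after seeing the data, and 61.5% lay within 400 nt of the stop codon. Counts of peaks and genes were the same by overlap of 1 base, by whole inclusion or by the representative transcript, and on either strand Cfg1 rose to 10 and Cfg2 to 5. With full-width peaks only (250 nt, 12.2% of all peaks), 0 Cfg1, 0 Cfg2 and 0 Cfg3 peaks remained and 0 genes had a SySy-called peak or any peak. With SySy-called peaks only, 92.3% were exonic and 7.69% intronic. Within 100 nt of the stop codon lay 15.4%. In place of GGACT, DRACH was in 91.3% of peaks and GGAC with any base in 56.5%. GGACT in fixed windows of 251 nt was in 47.8% and on the opposite strand in 4.35%. The background share of genes with a SySy-called peak was 8.18% over all 55450 genes, 78.3% over coding genes with any peak, 24.8% over those of 2034 to 5997 nt, the range of the 10 mRNAs, and 26.3% over those with a longest exon over 1000 nt, the last chosen after seeing the data. No paired analysis was possible because the lists hold no value per library, so replicates could not be left out, and a stricter threshold was not run because all scores were 0. Depth is unknown.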
